A study of Homo sapiens with 20 samples.

Results

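The genes described here make, sense and move cholesterol. They comprise 33 genes that were chosen by name and matched by symbol to the Ensembl identifiers of the siRNA count files, 33 of 57820 genes in all. Every one of the 33 was matched, and every one passed the filter on low counts that left 18806 genes for testing. T47D, the established human cell line used throughout, grew from a luminal breast cancer and responds to progestins through the progesterone receptor. RNA-seq libraries were made from T47D cells given an siRNA against FOXA1 (si-FOXA1; FOXA1 is a pioneer transcription factor that opens chromatin for hormone receptors), against CBX3 (si-CBX3; the heterochromatin protein HP1 gamma), against BRG1 (si-BRG1; the remodelling ATPase of SWI/SNF complexes, gene SMARCA4) or a control siRNA (si-control). Each siRNA was sampled at 6 h and at 0 h of 10 nM R5020, a synthetic progestin, with 2 libraries in each of the 8 groups, after a shift to charcoal-stripped serum and an overnight without serum that every treated and untreated group shared. The labels also give 1 RNA-seq library without siRNA at each of 6 h and 0 h, and 1 list of BRG1 ChIP-seq peaks at each of 30 min and 0 min. The labels list no samples held for 6 h or 30 min without R5020, so hormone and elapsed time cannot be told apart. The title of the series puts the question of how hormone represses genes through BRG1 and histone H1.2.

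Cholesterol is built from acetyl-CoA in a long chain of steps. The mevalonate branch makes the isoprene units and prenyl chains, squalene is then joined and closed into lanosterol, and a last series of enzymes turns lanosterol into cholesterol. Transcription of most of these enzymes is driven by SREBP-2, which is held in the endoplasmic reticulum by SCAP and the INSIG proteins while sterols are plentiful and is cut free when they run low. The LXR receptors act in the other direction: they sense oxysterols and turn on exporters such as ABCA1 and ABCG1, while SOAT1 stores excess cholesterol as esters.

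The libraries held 50017255 to 74374857 counted fragments. Each siRNA lowered its target: SMARCA4 stood at 2.26 to 5.90 CPM (counts scaled to a common library size) in the 4 si-BRG1 libraries against 61.7 to 76.6 CPM in the 4 si-control libraries, CBX3 at 3.07 to 6.80 CPM in si-CBX3 against 242 to 266 CPM in si-control, and FOXA1 at 44.4 to 62.8 CPM in si-FOXA1 against 166 to 408 CPM in si-control. FOXA1 itself was at 199 and 166 CPM at 6 h against 389 and 408 CPM at 0 h of R5020 in si-control. SMARCA4 was higher in the other knockdowns, at 146 to 187 CPM in si-FOXA1 and 117 to 184 CPM in si-CBX3. The luminal markers summed to 6900 to 12580 CPM, and none of the 9 stayed below 1 CPM in every library. Markers of hepatocytes, a main sterol-making cell type, summed to at most 0.0913 CPM in any library. Endothelial markers summed to at most 0.959 CPM and leukocyte markers to at most 1.497 CPM, with 4 of 5 leukocyte markers below 1 CPM throughout. Basal markers summed to at most 7.02 CPM, and fibroblast markers to between 22.2 and 60.5 CPM, where COL1A1 was the main contributor and 3 of 5 stayed below 1 CPM. The headers of the si-CBX3 and si-FOXA1 files give 1 counting thread, and those of si-BRG1 and si-control give 8. The labels name no batch, so whether the libraries were also handled apart is not known. Any such difference cannot be told apart from the knockdown when si-CBX3 or si-FOXA1 is compared with si-control. For this reason si-FOXA1 was also set against si-CBX3, whose files give the same thread number. CPM is a share of a library, so in these bulk samples fewer cells of a type and less RNA per cell cannot be told apart.

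Nearly the whole synthetic chain was lower in si-FOXA1 than in si-control. At 0 h, 24 of the 33 genes were lower in si-FOXA1 than in si-control and 5 were higher, at an adjusted p below 0.05 over all genes tested. Of all genes tested, 73.5% were called in that comparison, 33.5% lower and 40.0% higher. The median log2 fold change of the 33 genes was -1.01, against 0.11 over all genes tested. All 8 genes of the mevalonate and prenyl branch, 2 of 3 squalene and lanosterol genes and 7 of 8 genes from lanosterol to cholesterol were among the lower ones. After 6 h of hormone 25 genes were lower in si-FOXA1 than in si-control and 2 were higher, where 74.6% of all genes tested were called, 34.5% lower and 40.1% higher. The median of the 33 genes was then -0.89, beside 0.12 over all genes. Both times share 22 of their lower calls, which is 88.0% of those at 6 h and 91.7% of those at 0 h. The same share over all genes tested is not given here, so this overlap is not read as particular to these genes.

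Scaling by library totals alone in place of TMM moved the median of all genes to 0.33 at 0 h and 0.41 at 6 h in the comparisons of si-FOXA1 with si-control. With that scaling 22 of the 33 genes were still called lower and 5 higher at 0 h, and 24 lower and 5 higher at 6 h. PMVK (-0.07) and SREBF2 (-0.02) lost their calls at 0 h, which leaves 7 of the 8 mevalonate and prenyl genes lower, and PMVK (0.19), LSS (0.27) and SREBF1 (0.39) were called higher at 6 h. At 0 h MVD was then at -0.22, NPC1 at -0.35 and ABCG1 at -0.31, and all 3 kept their calls. In 20 of the 33 genes every one of the 4 si-FOXA1 libraries lay below every one of the other 12 siRNA libraries, as did 16.1% of all genes tested. ABCA1 was the only one of the 33 for which all 4 si-FOXA1 libraries lay above the other 12, as did 18.8% of all genes tested.

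**Figure D1:**
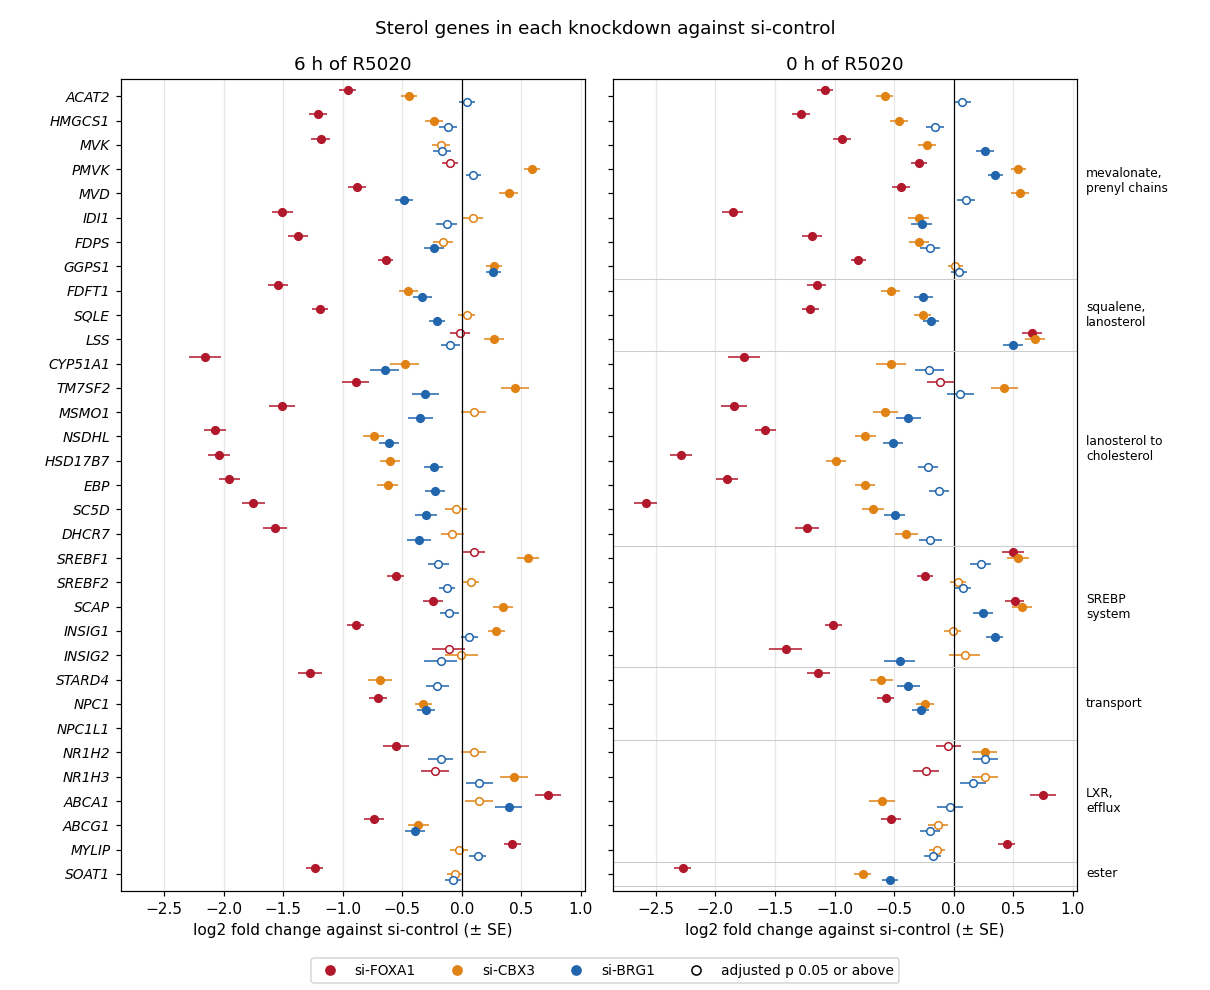
Log2 fold change of each sterol gene against si-control (horizontal axis, bars are standard errors) in si-FOXA1, si-CBX3 and si-BRG1 at 6 h (left) and 0 h (right) of R5020, with 2 libraries per group. Filled points passed an adjusted p of 0.05, open points did not, and NPC1L1 is left out because it was near 0 CPM. In si-FOXA1 at 0 h, 24 genes sit left of 0 as filled points, led by SC5D at -2.59.

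Among the synthetic enzymes the largest falls were near the end of the pathway. SC5D (ENSG00000109929.5, chromosome 11, 121163162 to 121179403 in hg19), the desaturase that adds a ring double bond to the late sterol precursor, stood at 68.6 and 63.3 CPM in si-FOXA1 at 0 h, against 359.9 and 433 CPM in si-control. Both si-FOXA1 libraries lay far below both si-control libraries, a fall of 6.01-fold (log2 -2.59 ± 0.0969, SE; adjusted p = 7.28e-13). HSD17B7 (ENSG00000132196.9, chromosome 1, 162760492 to 162782607), the keto-reductase that completes removal of the C4 methyl groups, had 4.66 and 5.43 CPM in si-FOXA1 and 25.7 and 23.7 CPM in si-control at 0 h, a 4.90-fold fall (log2 -2.29 ± 0.0916; adjusted p = 1.53e-12). EBP, the sterol isomerase, fell by 1.90 on the log2 scale, MSMO1, the C4 methyl oxidase, by 1.84, NSDHL, the C4 decarboxylase, by 1.58, and DHCR7, which reduces 7-dehydrocholesterol to cholesterol, by 1.23. CYP51A1, the lanosterol demethylase, was also lower (log2 -1.76 ± 0.134), but 78.8% of its exonic bases are shared on the same strand with LRRD1, so its value is uncertain. TM7SF2, a C14 sterol reductase that shares 0.5% of its exonic bases with VPS51, had 172 and 179 CPM in si-FOXA1 against 181 and 198 CPM in si-control at 0 h and did not pass the test (log2 -0.11 ± 0.115; adjusted p = 0.391).

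Per unit of gene length, levels of the last enzymes spanned a wide range. DHCR7 averaged 38.8 FPKM (CPM divided by exonic length in kilobases) in si-FOXA1 and 90.9 FPKM in si-control at 0 h, whereas HSD17B7 averaged 1.22 FPKM in si-FOXA1 and 5.99 FPKM in si-control. IDI1 was the most abundant of the 33 genes in si-control at 0 h, with 39.1 FPKM in si-FOXA1 and 141 FPKM in si-control.

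IDI1 (ENSG00000067064.6, chromosome 10, 1085848 to 1095110), which isomerises the isoprene unit so that chains can grow, showed the largest fall of the mevalonate branch. At 0 h it stood at 143 and 138 CPM in si-FOXA1, against 469 and 547 CPM in si-control. The groups did not overlap, and the fall was 3.62-fold (log2 -1.86 ± 0.0893; adjusted p = 1.47e-11). HMGCS1, the cytosolic HMG-CoA synthase at the entry to the branch, fell by 1.28 on the log2 scale, FDPS, the farnesyl diphosphate synthase, by 1.19, ACAT2, the cytosolic thiolase, by 1.08, MVK, the mevalonate kinase, by 0.94, and GGPS1, which extends the chain for protein prenylation, by 0.80. PMVK and MVD, the kinase and decarboxylase that follow MVK, moved least, with falls of 0.29 and 0.44. FDPS and HSD17B7 have processed or duplicated copies elsewhere in the genome, so their counts may be split with those copies.

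The squalene steps split. SQLE, the squalene epoxidase and one of the pace-setting steps of the pathway, had 121 and 118 CPM in si-FOXA1 and 284 and 267 CPM in si-control at 0 h (a 2.30-fold fall; adjusted p = 1.68e-10). FDFT1, the squalene synthase, fell by 1.15. LSS, the cyclase that closes squalene epoxide into lanosterol, went the other way, with 160.2 and 154 CPM in si-FOXA1 against 97.2 and 102 CPM in si-control (log2 0.66 ± 0.0823; adjusted p = 1.71e-06). LSS shares 9.6% of its exonic bases with another gene model on its strand. At 6 h LSS had 127 and 148 CPM in si-FOXA1 and 145 and 133 CPM in si-control, overlapping groups with a log2 difference of -0.02 ± 0.0820.

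**Figure D2:**
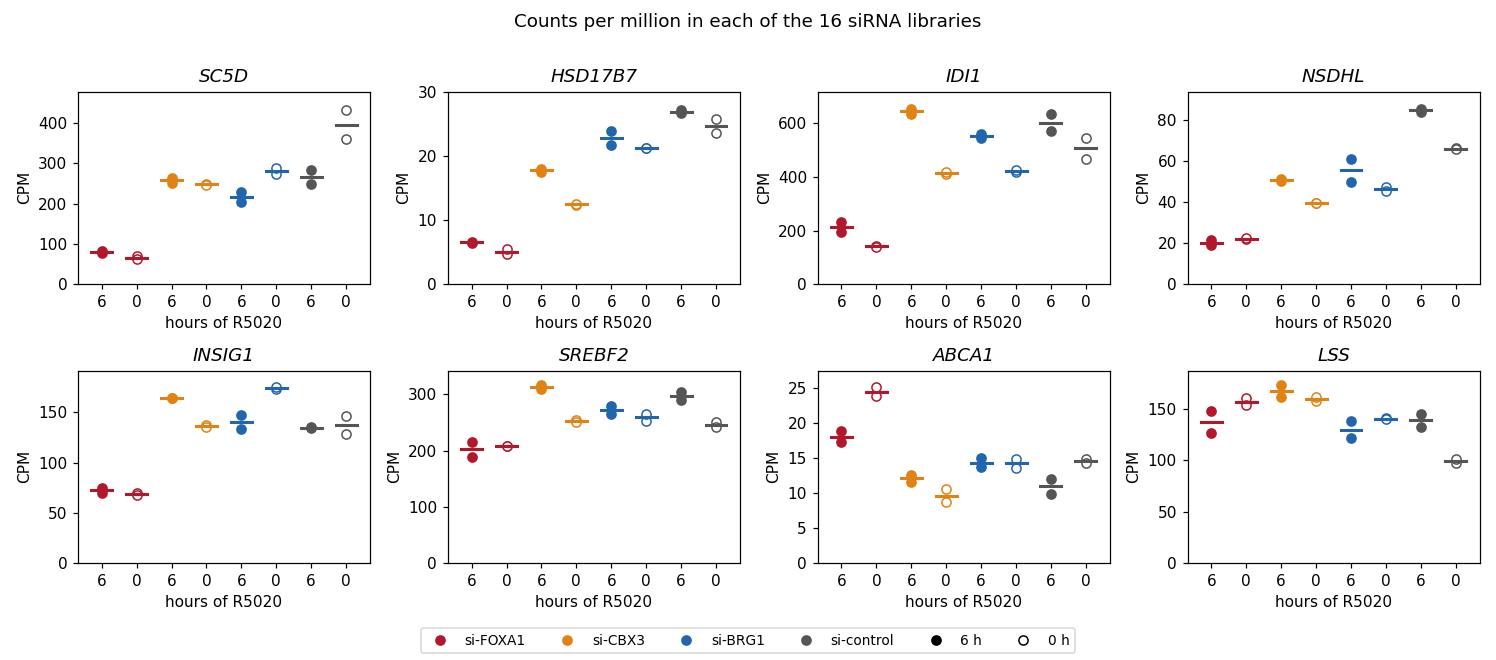
CPM (vertical axis, starting at 0) of 8 sterol genes in each of the 16 siRNA libraries; filled points are 6 h and open points 0 h of R5020, and each bar is the mean of 2 libraries. The si-FOXA1 points of SC5D, HSD17B7, IDI1, NSDHL, INSIG1 and SREBF2 sit below all other libraries, those of ABCA1 above them, and those of LSS among them.

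Among the SREBP regulators the INSIG genes were lower and SREBF1 and SCAP higher in si-FOXA1 than in si-control before hormone. The rises of SREBF1 and SCAP were not seen against si-CBX3, in which both were also higher than in si-control, as given below. INSIG2 (ENSG00000125629.10, chromosome 2, 118846028 to 118868573) had 10.7 and 11.3 CPM in si-FOXA1 and 28.6 and 29.8 CPM in si-control at 0 h, a fall of 2.66-fold (log2 -1.41 ± 0.137; adjusted p = 8.61e-08). INSIG1, itself a classical SREBP target, had 69.5 and 67.3 CPM in si-FOXA1 and 129 and 146 CPM in si-control (log2 -1.01 ± 0.0731; adjusted p = 2.22e-09). SREBF2, the gene of SREBP-2, moved little, with 208 and 208 CPM in si-FOXA1 against 250.2 and 242 CPM in si-control (log2 -0.24 ± 0.0689; adjusted p = 0.00451), a call that was lost with library totals (-0.02). SREBF1, which encodes the SREBP-1 forms that favour fatty acid genes, was higher by 0.50 ± 0.0899 and SCAP, the escort of both factors, by 0.51 ± 0.0812 on the log2 scale. At 6 h SREBF1 differed by 0.10 ± 0.0898 and did not pass, though with library totals it was called higher at 0.39. SCAP was lower by -0.24 ± 0.0811 (adjusted p = 0.0126), a direction that turned to 0.05 with library totals in place of TMM and lost its call without si-FOXA1 6 h replicate 1 (-0.11) or si-control 6 h replicate 1 (-0.21).

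Export and storage genes did not follow one direction. ABCA1 (ENSG00000165029.11, chromosome 9, 107543283 to 107690518), the exporter that loads cholesterol onto apolipoproteins, had 23.9 and 25.2 CPM in si-FOXA1 against 14.9 and 14.3 CPM in si-control at 0 h (log2 0.75 ± 0.107; adjusted p = 8.03e-06). MYLIP, the LXR-induced ubiquitin ligase that degrades lipoprotein receptors, was higher by 0.44 ± 0.0690. ABCG1, another sterol exporter, was lower by -0.53 ± 0.0841, and the receptor genes NR1H2 (LXR beta) and NR1H3 (LXR alpha) did not pass at 0 h. SOAT1 (ENSG00000057252.8, chromosome 1, 179262925 to 179327815), the esterifying enzyme, had 61.8 and 59.4 CPM in si-FOXA1 and 281 and 306 CPM in si-control, a fall of 4.84-fold and the smallest p of the 33 genes (log2 -2.28 ± 0.0726; adjusted p = 1.24e-13). STARD4, a sterol carrier of the cytosol, had 32.9 and 31.7 CPM in si-FOXA1 and 63.9 and 77.9 CPM in si-control (log2 -1.14 ± 0.0992; adjusted p = 2.27e-08). NPC1, which releases cholesterol from lysosomes, was lower by -0.57 ± 0.0741. NPC1L1, the intestinal cholesterol importer, was at 0.0378 to 0.447 CPM over the 16 libraries and passed no test.

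Set against si-CBX3, whose files give the same thread number, si-FOXA1 again had most of the chain lower. At 0 h 27 of the 33 genes were lower and 2 higher, where 64.8% of all genes tested were called, 30.6% lower and 34.2% higher, and the median of the 33 was -0.81. At 6 h 29 were lower and 2 higher, where 69.3% of all genes were called, 33.7% lower and 35.5% higher, with a median of -0.97. ABCA1 and MYLIP were the 2 higher genes at both times. The 4 genes not called at 0 h were NPC1L1, LSS (-0.02 ± 0.0816), SREBF1 (-0.04 ± 0.0895) and SCAP (-0.06 ± 0.0806). LSS, SREBF1 and SCAP had been higher than in si-control at 0 h, so those rises were not seen against si-CBX3. Each was itself higher in si-CBX3 than in si-control at 0 h, by 0.68, 0.54 and 0.57. At 6 h LSS, SREBF1 and SCAP were lower than in si-CBX3, by -0.28, -0.45 and -0.59. SC5D differed by -1.91 ± 0.0948 at 0 h and -1.70 ± 0.0942 at 6 h. TM7SF2, which had not differed from si-control at 0 h, was lower than in si-CBX3 by -0.54 ± 0.115 at 0 h and -1.34 ± 0.117 at 6 h. It was itself higher in si-CBX3 than in si-control at 0 h, by 0.42 ± 0.115. At 6 h it was also lower in si-FOXA1 than in si-control (-0.89). PMVK differed by -0.84 from si-CBX3 at 0 h but by -0.29 from si-control. TM7SF2, PMVK, MVD and SREBF1 were higher in all 4 si-CBX3 libraries than in all 12 others. For them, and for LSS and SCAP, this reference was thus raised above si-control. In this comparison at 0 h, 9 of 10 proliferation genes were higher, 15 of 16 interferon-stimulated genes lower and 4 of 4 basal markers higher, the basal sum standing at 6.78 to 7.02 CPM in si-FOXA1 against 0.757 to 1.21 CPM in si-CBX3. Their part in the sterol gene values was not tested. The comparison shares the si-FOXA1 libraries with the ones above, so its calls are not independent of them.

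Neighbouring pathways were read from lists of genes that are not among the 33, each beside the 33.5% of all genes tested that were lower and the 40.0% that were higher in this comparison. Of 9 genes for SREBP processing and sterol-driven degradation, 8 were lower and 1 higher in si-FOXA1 than in si-control at 0 h, with a median of -0.55. SPRING1, a licensing factor of the protease that cuts SREBP, changed by -1.59 ± 0.0629, and the ubiquitin ligase RNF139 by -1.37 ± 0.104. Of 8 tested fatty acid targets of SREBP-1, 6 were lower and 1 higher (median -1.03): ACLY, which makes cytosolic acetyl-CoA, changed by -1.57 ± 0.0641, the desaturase SCD by -1.36 ± 0.0647 and the elongase ELOVL6 by 1.13 ± 0.0887. Of 10 genes that use isoprenoids, 5 were lower and 1 higher (median -0.36), with PDSS1, which builds the ubiquinone side chain, at -0.82 ± 0.0898. Other sterol-handling genes gave 7 lower and 2 higher of 11 (median -0.52), with the C4-demethylation scaffold ERG28 at -1.40 ± 0.0931 and the lipoprotein receptor LRP1 at 1.26 ± 0.183. Other gene groups moved in the same comparison: 15 of 16 interferon-stimulated genes were lower, their sum standing at 372 to 471 CPM in si-FOXA1 against 2768 to 5807 CPM in si-control at 0 h, and of 10 proliferation genes 7 were lower and 2 higher, with sums of 683 to 739 CPM in si-FOXA1 against 804 to 860.0 CPM in si-control. Basal markers summed to 6.78 to 7.02 CPM in si-FOXA1 against 1.18 to 1.401 CPM in si-control, with 2 of 4 below 1 CPM in every library. Their part in the sterol gene values was not tested.

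Promoter sequence was read for what the genes share apart from their function. Windows of 250 bases before the RefSeq start (GRCh38.p14) were found for 29 of the 33 genes and were searched on both strands for the sterol regulatory element core TCACNCCAC, the CCAAT box (CCAAT), the E-box CACGTG, the forkhead core TGTTTNC and the steroid receptor half-site TGTTCT. These 4 windows are shown: SREBF2 for the only sterol element match, SC5D for the largest fall, and the INSIG pair because their responses differed. Capitals mark matches to the first 4 motifs on either strand, and no marked matches overlap in these windows.
SREBF2, chr22:41832855-41833104, plus strand: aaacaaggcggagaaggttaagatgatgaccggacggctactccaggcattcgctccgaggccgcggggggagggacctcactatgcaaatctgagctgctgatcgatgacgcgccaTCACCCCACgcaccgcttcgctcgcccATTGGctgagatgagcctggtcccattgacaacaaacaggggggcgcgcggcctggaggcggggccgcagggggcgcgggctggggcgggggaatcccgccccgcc
SC5D, chr11:121292521-121292770, plus strand: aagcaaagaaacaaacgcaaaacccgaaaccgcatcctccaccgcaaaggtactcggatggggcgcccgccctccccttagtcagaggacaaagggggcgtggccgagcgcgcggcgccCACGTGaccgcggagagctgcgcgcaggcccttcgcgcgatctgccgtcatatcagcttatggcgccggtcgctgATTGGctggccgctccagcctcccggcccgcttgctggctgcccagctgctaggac
INSIG1, chr7:155297628-155297877, plus strand: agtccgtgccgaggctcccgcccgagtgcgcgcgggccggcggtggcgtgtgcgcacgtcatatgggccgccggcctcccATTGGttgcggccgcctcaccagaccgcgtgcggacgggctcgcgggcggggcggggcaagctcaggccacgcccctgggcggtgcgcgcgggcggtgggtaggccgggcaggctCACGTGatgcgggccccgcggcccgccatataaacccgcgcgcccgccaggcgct
INSIG2, chr2:118088221-118088470, plus strand: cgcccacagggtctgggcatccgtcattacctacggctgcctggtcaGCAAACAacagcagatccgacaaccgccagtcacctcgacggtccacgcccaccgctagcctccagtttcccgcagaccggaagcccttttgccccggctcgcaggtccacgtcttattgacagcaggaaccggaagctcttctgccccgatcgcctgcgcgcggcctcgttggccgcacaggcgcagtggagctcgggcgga
The CCAAT box was in 18 of 29 windows (62.1%), against 9021 of all 27305 windows in the table. The E-box was in 4 of 29 (13.8%, against 6.49% of all), namely SC5D, SCAP, INSIG1 and ABCA1. The forkhead core was in 3 of 29 (10.3%, against 15.6% of all), namely MVK, GGPS1 and INSIG2. The sterol element core was in 1 of 29 (3.45%, against 0.875% of all) and the receptor half-site in 1 of 29, PMVK (3.45%, against 12.4% of all). These matches describe letters in a window and are not measurements of binding. Only these letters before 1 RefSeq start per gene were searched, so a window without a match may still hold a variant element.

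In si-CBX3 the sterol genes differed from si-control in both directions, by up to 0.99 on the log2 scale at 0 h. At 0 h 18 of the 33 were lower in si-CBX3 than in si-control and 7 were higher, where 54.1% of all genes tested were called, 26.0% lower and 28.1% higher, and the median of the 33 was -0.26 beside 0.05 over all genes. With library totals in place of TMM the counts were 13 lower and 8 higher. The si-CBX3, si-BRG1 and si-FOXA1 comparisons share the same si-control libraries, so their values are given side by side without an overlap. HSD17B7 led the falls, with 12.3 and 12.5 CPM in si-CBX3 against 25.7 and 23.7 CPM in si-control at 0 h (log2 -0.99 ± 0.0852; adjusted p = 6.11e-08). The higher genes were led by LSS, with 158 and 161 CPM in si-CBX3 against 97.2 and 102 CPM in si-control (log2 0.68 ± 0.0823; adjusted p = 2.74e-06).

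Within the pathway neighbouring steps did not differ alike between si-CBX3 and si-control at 0 h. ACAT2, at the entry, had 39.6 and 40.2 CPM in si-CBX3 against 59.3 and 59.9 CPM in si-control (log2 -0.58 ± 0.0694), while PMVK and MVD were higher by 0.54 ± 0.0649 and 0.56 ± 0.0771. From lanosterol on, 7 of 8 genes were lower and TM7SF2 was higher by 0.42 ± 0.115. Of the regulators, SREBF1 was higher by 0.54 ± 0.0899 and SCAP by 0.57 ± 0.0812, while SREBF2, INSIG1 and INSIG2 did not pass. Among the rest, SOAT1 had 173 and 173 CPM in si-CBX3 against 281 and 306 CPM in si-control (log2 -0.76 ± 0.0693), STARD4 was lower by -0.61 ± 0.0979, and ABCA1, at 10.5 and 8.70 CPM in si-CBX3 against 14.9 and 14.3 CPM in si-control, was lower by -0.60 ± 0.111, whereas in si-FOXA1 it was higher. PMVK, MVD, TM7SF2 and SREBF1, 4 of the 33 genes, were higher in all 4 si-CBX3 libraries than in all 12 others, as were 4.14% of all genes tested. In this comparison 15 of 16 interferon-stimulated genes and 9 of 10 proliferation genes were lower too, with proliferation sums of 278 to 307 CPM in si-CBX3 against 804 to 860.0 CPM in si-control at 0 h. Their part in these values was not tested.

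After 6 h the si-CBX3 libraries were closer to si-control by these counts: 10 of the 33 were lower and 9 higher, where 49.2% of all genes were called, 24.4% lower and 24.7% higher, and the median of the 33 was -0.01. NSDHL had the largest difference, at 51.2 and 49.96 CPM in si-CBX3 against 83.9 and 85.0 CPM in si-control (log2 -0.74 ± 0.0864; adjusted p = 2.60e-06). STARD4 was lower by -0.68 ± 0.0991 and PMVK higher by 0.59 ± 0.0649. SOAT1, SC5D and MSMO1, lower at 0 h, did not pass at 6 h, with log2 differences of -0.06 ± 0.0696, -0.05 ± 0.0912 and 0.10 ± 0.105. Of the lower calls, 9 stood at both times, which is 9 of the 10 at 6 h and 9 of the 18 at 0 h, without a like share over all genes.

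With si-BRG1 the differences from si-control were small. At 0 h 10 of the 33 genes were lower with si-BRG1 than with si-control and 5 higher, where 28.5% of all genes tested were called, 13.4% lower and 15.1% higher, and the median of the 33 was -0.18. At 6 h 14 were lower and 2 higher, where 37.3% of all genes were called, 17.8% lower and 19.6% higher, with a median again of -0.18. These counts depended on single libraries and on the scaling. Without si-BRG1 0 h replicate 1 the count at 0 h was 6, and without si-control 0 h replicate 2 it was 7, in place of 15. At 6 h it was 7 without si-control 6 h replicate 1, 9 without si-control 6 h replicate 2 and 3 in a fit of only the groups compared, in place of 16. Library totals gave 4 lower and 7 higher at 0 h and 7 lower and 4 higher at 6 h, and DESeq2's size factors gave 14 lower and 4 higher at 0 h.

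SOAT1 had the firmest fall in si-BRG1 at 0 h, with 206 and 198 CPM against 281 and 306 CPM in si-control (log2 -0.54 ± 0.0691; adjusted p = 2.81e-05). NSDHL had 47.4 and 45.2 CPM in si-BRG1 against 66.2 and 65.6 CPM in si-control at 0 h (log2 -0.51 ± 0.0860; adjusted p = 0.000332), and at 6 h it was lower by -0.61 ± 0.0859. In the other direction LSS had 141 and 139.7 CPM in si-BRG1 against 97.2 and 102 CPM in si-control at 0 h (log2 0.50 ± 0.0822; adjusted p = 0.000278). PMVK, INSIG1, MVK and SCAP were the other higher genes, by 0.35, 0.34, 0.26 and 0.25; the call of SCAP was lost without any 1 of the 4 libraries and that of MVK without si-BRG1 0 h replicate 1, si-BRG1 0 h replicate 2 or si-control 0 h replicate 2. None of these 5 was among the 2 higher genes at 6 h, GGPS1 (0.27 ± 0.0641) and ABCA1 (0.39 ± 0.111), both of which lost their calls without si-control 6 h replicate 2 (0.22 and 0.26), and ABCA1 also without si-BRG1 6 h replicate 2 (0.33). From lanosterol to cholesterol all 8 genes were lower in si-BRG1 at 6 h, from -0.65 ± 0.121 for the uncertain CYP51A1 to -0.23 ± 0.0863 for EBP, whereas 3 of 8 were lower at 0 h. Leaving out si-BRG1 6 h replicate 2 took HSD17B7 to -0.17, EBP to -0.08 and TM7SF2 to -0.09. These 3 lost their calls there and without either si-control 6 h library. With the replicate number as a block EBP and TM7SF2 also lost theirs (adjusted p = 0.0535 and 0.0553), which leaves 6 of 8. The si-BRG1 pair at 6 h was the least alike of the 8 pairs of libraries. Proliferation genes were higher in si-BRG1 (9 of 10 at 0 h) and interferon-stimulated genes lower (15 of 16), and their part was not tested.

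After 6 h of R5020 many of the synthetic enzymes were higher than at 0 h in si-control cells. SOAT1 and 4 of the 5 genes of the LXR group were lower, while NR1H2 was higher. No samples were held for 6 h without R5020, so hormone and elapsed time cannot be told apart here. The word response below means 6 h against 0 h. At 6 h against 0 h, 16 of the 33 genes were higher and 8 lower, where 37.6% of all genes tested were called, 19.5% higher and 18.1% lower, and the median of the 33 was 0.13 beside -0.02 over all genes. With library totals the split was 10 higher and 9 lower. SOAT1 fell furthest: it had 137 and 124 CPM at 6 h against 281 and 306 CPM at 0 h, a fall of 2.25-fold (log2 -1.17 ± 0.0700; adjusted p = 7.10e-10). INSIG2 had 17.8 and 13.0 CPM at 6 h against 28.6 and 29.8 CPM at 0 h (log2 -0.92 ± 0.136; adjusted p = 3.91e-05). MYLIP had 16.6 and 17.4 CPM at 6 h and 30.9 and 32.0 CPM at 0 h (log2 -0.89 ± 0.0715; adjusted p = 3.07e-08). Both times were apart in all 3 genes. Among the 33 genes, 19 had both libraries at 6 h above both at 0 h and 10 had them below. The like share over all genes is not given here.

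The rises in si-control were spread over every stage of synthesis. NPC1 showed the firmest, with 167 and 145 CPM at 6 h against 93.7 and 92.4 CPM at 0 h (log2 0.75 ± 0.0738; adjusted p = 4.00e-07). SQLE had 416 and 411 CPM at 6 h against 284 and 267 CPM at 0 h, groups well apart. SCAP rose by 0.56 ± 0.0814, LSS by 0.48 ± 0.0823, DHCR7 by 0.47 ± 0.0991, MVD by 0.47 ± 0.0772 and SREBF2 by 0.27 ± 0.0688. SC5D and GGPS1 fell instead. SC5D had 284 and 249.7 CPM at 6 h against 359.9 and 433 CPM at 0 h (log2 -0.57 ± 0.0913; adjusted p = 8.99e-05). GGPS1 had 158 and 149 CPM at 6 h against 212 and 218 CPM at 0 h (log2 -0.48 ± 0.0642; adjusted p = 1.24e-05). The rises of 0.23 to 0.25 for FDPS, FDFT1, EBP, MVK and IDI1 and that of 0.31 for NR1H2 lost their calls when some single libraries were left out, for FDPS, FDFT1, EBP and NR1H2 whichever of the 4 it was.

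**Figure D3:**
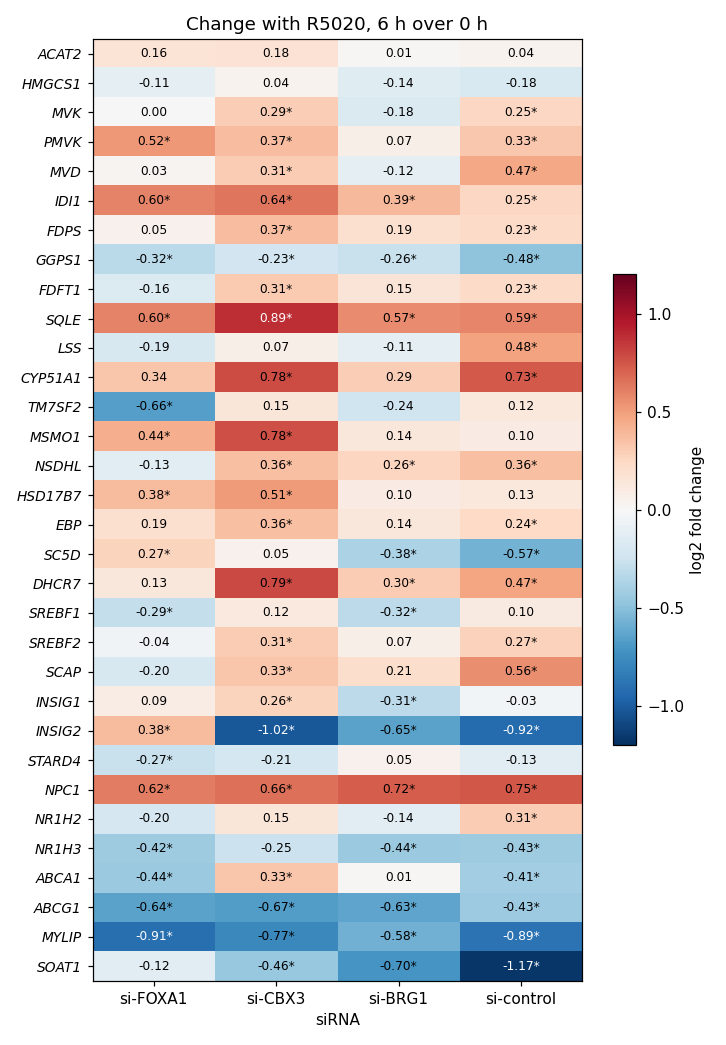
Log2 fold change of 32 sterol genes between 6 h and 0 h of R5020 under each siRNA, 2 libraries per time, with colour and printed value giving the change and a star marking an adjusted p below 0.05; NPC1L1 is left out because it was near 0 CPM. SQLE, IDI1 and NPC1 are starred rises and GGPS1, ABCG1 and MYLIP starred falls under all 4 siRNAs, while INSIG2 changes sign in si-FOXA1.

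Under the other siRNAs, which share no library with each other in this comparison, parts of the response were seen again. In si-FOXA1 8 of the 33 genes were higher and 8 lower at 6 h (38.8% of all genes tested were called, 19.1% higher and 19.6% lower), in si-CBX3 18 were higher and 5 lower (41.0% of all genes, 20.4% higher and 20.5% lower), and in si-BRG1 5 were higher and 9 lower (35.7% of all genes, 18.6% higher and 17.1% lower). With library totals si-BRG1 gave 3 higher and 12 lower. In si-CBX3 14 of the 18 higher genes were also among the 16 of si-control, which is 77.8% and 87.5% of the lists, and all 5 of its lower genes were among the 8 of si-control. In si-FOXA1 4 of the 8 higher genes were among the 16 of si-control, and in si-BRG1 5 of 5 were. Such overlaps over all genes tested are not given here, so these are not read as particular to the sterol genes.

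IDI1, SQLE and NPC1 rose and GGPS1, ABCG1 and MYLIP fell under every siRNA, and how many of all genes did so is not given here. Of these calls, that of IDI1 in si-control was lost without si-control 0 h replicate 1 (0.14) or si-control 6 h replicate 1 (0.17), and that of GGPS1 in si-CBX3 without any of 3 of the 4 libraries. NPC1 was the steadiest, with rises of 0.62, 0.66, 0.72 and 0.75 in si-FOXA1, si-CBX3, si-BRG1 and si-control. SQLE rose by 0.60, 0.89, 0.57 and 0.59 and MYLIP changed by -0.91, -0.77, -0.58 and -0.89 in the same order. In si-FOXA1 cells SQLE had 194 and 169 CPM at 6 h against 121 and 118 CPM at 0 h, so it rose by a like log2 amount from a lower level. ACAT2 and HMGCS1 passed under none of the 4 siRNAs, with log2 changes between -0.18 and 0.18.

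The response itself differed from that of si-control for some genes, by a test of the difference between the responses. In si-FOXA1 4 of the 33 genes had a higher and 9 a lower response than in si-control, where 28.7% of all genes tested differed, 13.0% with a higher and 15.7% with a lower one. With library totals the counts were 6 and 7, and they were 3 and 5 without si-FOXA1 0 h replicate 2 and likewise 3 and 5 without si-FOXA1 6 h replicate 1. INSIG2 showed the largest difference: it had 15.0 and 13.5 CPM at 6 h against 10.7 and 11.3 CPM at 0 h in si-FOXA1, a rise of 0.38 ± 0.139, whereas in si-control it fell by 0.92, a difference of 1.30 ± 0.195 (adjusted p = 0.000110). The rise within si-FOXA1 (adjusted p = 0.0408) lost its call without any 1 of the 4 libraries, and the difference kept its call without any 1 of the 8.

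SOAT1 did not fall detectably in si-FOXA1, with 57.3 and 54.0 CPM at 6 h against 61.8 and 59.4 CPM at 0 h (log2 -0.12), and its response differed from that in si-control by 1.04 ± 0.0991 (adjusted p = 9.95e-07). Its level at 6 h was below that of si-control at either time. SC5D rose in si-FOXA1, with 82.6 and 76.1 CPM at 6 h against 68.6 and 63.3 CPM at 0 h, whereas it fell in si-control, a difference of 0.84 ± 0.130 (adjusted p = 0.000156). The rise within si-FOXA1 (log2 0.27) lost its call without si-FOXA1 0 h replicate 2 or si-FOXA1 6 h replicate 1. In the opposite direction, SCAP, LSS and MVD, which rose in si-control, had responses lower by -0.75 ± 0.115, -0.68 ± 0.116 and -0.44 ± 0.109, and TM7SF2 fell to 101 and 121 CPM at 6 h, against 172 and 179 CPM at 0 h, in si-FOXA1 (difference -0.78 ± 0.163; adjusted p = 0.00189).

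Fewer responses differed from si-control under the other siRNAs. In si-CBX3 4 of the 33 responses were higher and 1 lower than in si-control (8.99% of all genes tested differed, 4.63% higher and 4.36% lower). Without si-CBX3 0 h replicate 2 the counts were 3 higher and 0 lower. The 5 were ABCA1 (0.75 ± 0.159), SOAT1 (0.71 ± 0.0981), MSMO1 (0.68 ± 0.149), SC5D (0.62 ± 0.129) and, lower, LSS (-0.41 ± 0.116). The call of LSS was lost without any 1 of 7 of the 8 libraries, that of ABCA1 without si-CBX3 0 h replicate 2 (0.61) and that of MSMO1 without si-control 6 h replicate 2 (0.54). ABCA1 had 11.5 and 12.7 CPM at 6 h against 10.5 and 8.70 CPM at 0 h in si-CBX3, a rise that was lost without si-CBX3 0 h replicate 2 (0.20) or si-CBX3 6 h replicate 2 (0.26). In si-control it had 12.0 and 9.90 CPM at 6 h against 14.9 and 14.3 CPM at 0 h, a fall that was lost without si-control 6 h replicate 2 (-0.28). In si-BRG1 1 response was higher and 3 lower (5.22% of all genes differed, 1.49% higher and 3.72% lower): SOAT1 (0.46 ± 0.0979), MVK (-0.42 ± 0.106), MVD (-0.59 ± 0.109) and LSS (-0.59 ± 0.116). MVD had 95.2 and 90.2 CPM at 6 h against 103 and 98.8 CPM at 0 h in si-BRG1, and 136 and 124 CPM at 6 h against 96.5 and 91.4 CPM at 0 h in si-control. The si-BRG1 count of 4 was 0 without si-BRG1 0 h replicate 1, 2 without si-BRG1 0 h replicate 2, si-control 0 h replicate 2 or si-control 6 h replicate 2, 12 without si-BRG1 6 h replicate 1, 7 by DESeq2's test and 0 in a fit of only the groups compared. The si-CBX3 count of 5 was 10 by DESeq2's test and 11 in a fit of only the groups compared. LSS and SOAT1 appear in all 3 lists, and all 3 comparisons share the si-control libraries.

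**Figure D4:**
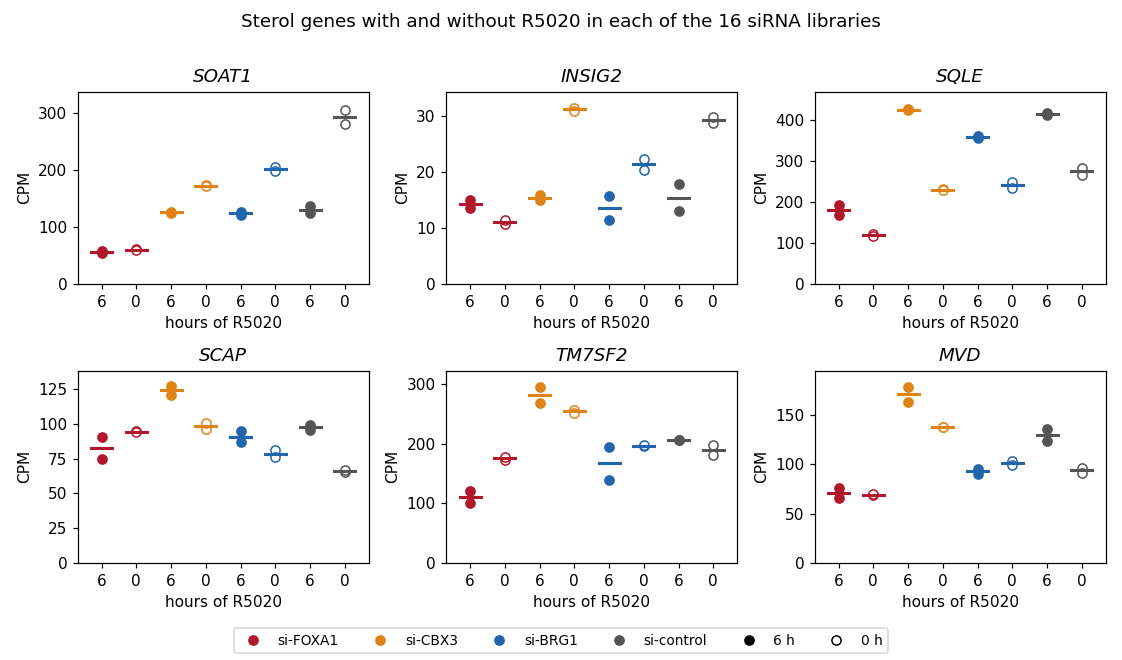
CPM (vertical axis, starting at 0) of 6 sterol genes in each of the 16 siRNA libraries, with filled points at 6 h and open points at 0 h of R5020 and a bar at the mean of 2 libraries. SOAT1 stands at 54.0 to 61.8 CPM in all 4 si-FOXA1 libraries but at 124 to 306 CPM in si-control, and INSIG2 is higher at 6 h than at 0 h in si-FOXA1 and lower at 6 h under the other siRNAs.

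Without siRNA, 31 of the 33 genes had values in the deposited files; HSD17B7 and NPC1 were not analysed here. With 1 library per time there is no test. On the log2 scale of RPKM plus 1, 22 genes were higher and 9 lower at 6 h than at 0 h, with a median of 0.26 against 0.04 over the 17398 genes in both data sets. Of the 23 genes called in si-control that had a value, 19 moved in the same direction (82.6%), where 79.0% of all such genes did. SQLE stood at 50.9 RPKM at 6 h against 22.1 RPKM at 0 h, the largest rise of the 31 (1.17), and SCAP at 24.9 RPKM at 6 h against 11.6 RPKM at 0 h (1.04). SC5D (0.12), ABCA1 (0.50), IDI1 (-0.11) and LSS (-0.18) went against their direction in si-control. SOAT1 went the same way but less far, with 9.75 RPKM at 6 h against 12.4 RPKM at 0 h (-0.32).

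**Figure D5:**
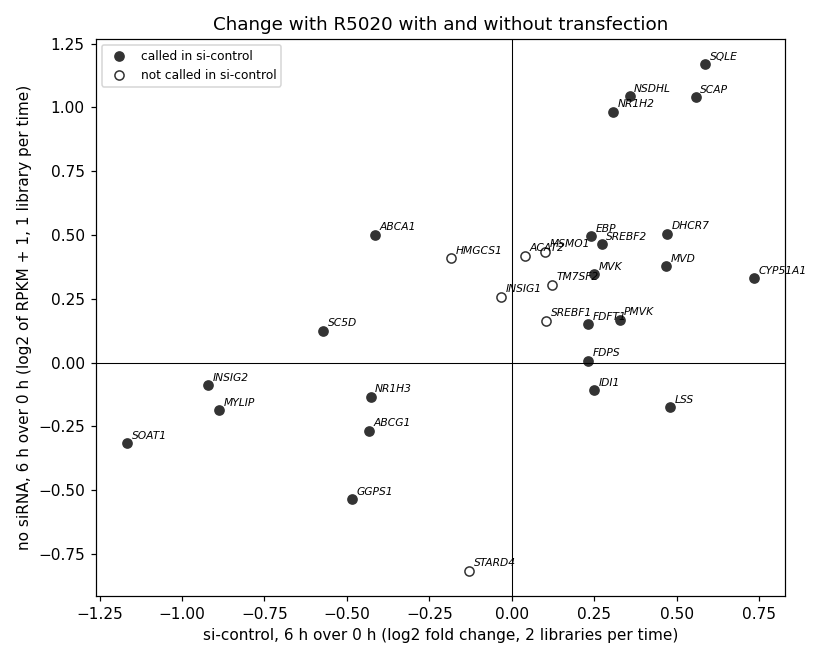
Change of 30 sterol genes between 6 h and 0 h of R5020, without siRNA (vertical axis, log2 ratio of RPKM plus 1 at 6 h over 0 h, 1 library per time) and in si-control (horizontal axis, log2 fold change at 6 h over 0 h, 2 libraries per time). Filled points were called in si-control, and NPC1L1 is left out because it was near 0. SQLE is at the upper right, with 1.17 without siRNA and 0.59 in si-control, and ABCA1 and SC5D sit at the upper left.

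BRG1 peaks lay near a few of these genes, at 30 min a share close to that of all genes tested. At 30 min of R5020, 3 of the 33 genes had a peak within 5 kb of their 5 prime end (9.09%, against 10.3% of the genes tested; 6180 peaks in the list), and at 0 min 1 did (3.03%, against 1.89%; 2288 peaks). The scores are the authors'. In hg19 coordinates the 30 min peaks covered the 5 prime ends of GGPS1 (chr1:235489721-235491810, score 96.2), MYLIP (chr6:16128874-16130259, score 113) and NPC1 (chr18:21165864-21167107, score 57.2). The 0 min peak lay 259 bp from that of IDI1 (chr10:1095369-1097114, score 53.1). The responses of these 4 genes were not called different in si-BRG1 and si-control: GGPS1 differed by 0.22 ± 0.0905 (adjusted p = 0.171), MYLIP by 0.31 ± 0.1002 (adjusted p = 0.0832), NPC1 by -0.02 ± 0.104 (adjusted p = 0.924) and IDI1 by 0.14 ± 0.122 (adjusted p = 0.538).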

How the data were processed

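The authors deposited raw counts of fragments per gene for 16 siRNA libraries of T47D cells. Per the file headers, featureCounts 1.4.6-p2 made them with GENCODE models on hg19, reading strand in reverse. The submitters' processing notes also name Trimmomatic, STAR, Bowtie 1.0.0 and HOMER, without saying which file each made. The files without siRNA hold estimated reads and RPKM per transcript, both as deposited. The authors' peak lists give each peak a score, also as deposited, from 1 library each.

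The 33 genes and the comparison lists were chosen with earlier results of these data known. In R 4.3.3, edgeR 4.0.16 kept 18806 genes (filterByExpr), scaled by TMM, and fitted 16 libraries in 8 groups by quasi-likelihood, which left 8 residual degrees of freedom. Calls rest on two-sided tests with Benjamini-Hochberg adjustment over the 18806 genes, at 0.05. Errors after ± are standard errors of log2 fold changes, with n = 2 libraries per group. CPM values carry the TMM scaling. The labels number the replicates without saying that cultures were separate, so the p-values reflect the spread between these particular samples, which may be technical. One si-CBX3 0 h library has no protocol in the labels. The procedure was tested on simulated counts in which few genes differed. That simulation does not bear on the scaling where most genes were called, as for si-FOXA1 against si-control. RPKM was summed per gene and compared as log2 with a pseudocount of 1. All 33 genes could be named. Values of every library were to be given for the called genes with the largest change in each pathway step, and other such genes, the figures' genes and the printed promoters were chosen after their values were seen. Of each other list, up to 4 called genes with the lowest p could be named. The alternatives were DESeq2 1.42.0's size factors, library totals, DESeq2's Wald test, no filter, a fit of only the groups compared, the replicate number as a block, and leaving out each library in turn.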

Additional observations from a re-analysis of the deposited data

Results flagged for a closer look

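Each result here drew attention because the hormone response (6 h against 0 h of R5020) under an siRNA differed from that in si-control by edgeR's test of the difference, at an adjusted p below 0.05 over all genes tested. There were 22 such differences, in 16 of the 33 genes, and all of them use the same si-control libraries. Of all genes tested, 28.7% differed in si-FOXA1, 8.99% in si-CBX3 and 5.22% in si-BRG1. The share of all genes that differed under any siRNA is not given here, so the 16 are not read as particular to these genes. A positive value means a response that was higher, or less negative, under the siRNA.

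In si-FOXA1 the response was higher for INSIG2 by 1.30 (adjusted p = 0.000110), SOAT1 by 1.04 (9.95e-07), SC5D by 0.84 (0.000156) and IDI1 by 0.35 (0.0433). It was lower for TM7SF2 (-0.78), SCAP (-0.75), LSS (-0.68), NR1H2 (-0.51), NSDHL (-0.49), MVD (-0.44), FDFT1 (-0.39), SREBF1 (-0.39) and SREBF2 (-0.31). Leaving out single libraries ended the call in 6 of 8 cases for SREBF1, 5 of 8 for SREBF2 and for IDI1, 4 of 8 for NR1H2 and 2 of 8 for FDFT1.

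In si-CBX3 the response was higher for ABCA1 (0.75), SOAT1 (0.71), MSMO1 (0.68) and SC5D (0.62) and lower for LSS (-0.41), whose call was lost in 7 of 8 such cases. In si-BRG1 it was higher for SOAT1 (0.46) and lower for MVD (-0.59), LSS (-0.59) and MVK (-0.42); the call was lost in 6 of 8 cases for MVK, 4 of 8 for SOAT1 and 1 of 8, without si-BRG1 0 h replicate 1, for MVD (-0.56) and LSS (-0.59).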

How the results depend on the processing

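The main comparisons gave 290 called values of single genes. Over all alternatives these were recomputed 2988 times: 2746 kept direction and call, 241 kept direction but lost the call, and 1 reversed. The reversal was SCAP in si-FOXA1 against si-control at 6 h, at 0.047 with library totals in place of TMM. Library totals also moved the median over all genes tested to 0.33 and 0.41 for si-FOXA1, 0.16 and 0.10 for si-CBX3 and 0.11 and 0.13 for si-BRG1 against si-control at 0 h and 6 h, and to 0.15 and 0.25 for si-FOXA1 against si-CBX3. Library totals ended 37 calls, a fit of only the groups compared 25, no filter on low counts 3, and DESeq2's size factors and DESeq2's Wald test 2 each.

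Counts of called genes among the 33 moved by over 1.5 times in these cases, and the cause was not tested. With DESeq2's Wald test 7 responses differed between si-BRG1 and si-control in place of 4, and 10 between si-CBX3 and si-control in place of 5. In a fit of only the groups compared, which has fewer samples, these counts were 0 and 11, si-BRG1 against si-control at 6 h gave 3 in place of 16, and 6 h against 0 h in si-BRG1 gave 9 in place of 14. With peaks at or above the list's median score, 0 genes had a 0 min BRG1 peak within 5 kb in place of 1.

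Leaving out 1 library gave 6 to 12 calls for si-BRG1 at 0 h and 7 to 16 at 6 h, 22 to 23 for si-CBX3 at 0 h and 16 to 19 at 6 h, and 29 to 30 for si-FOXA1 at 0 h and 26 to 27 at 6 h, each against si-control. For si-FOXA1 against si-CBX3 it gave 28 to 29 at 0 h and 30 to 31 at 6 h. For the differences between responses the ranges were 0 to 12 in si-BRG1, 3 to 6 in si-CBX3 and 8 to 14 in si-FOXA1. For 6 h against 0 h they were 10 to 19 in si-BRG1, 18 to 23 in si-CBX3, 12 to 17 in si-FOXA1 and 18 to 20 in si-control. A group left with 1 library was assumed to vary like the others.

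With the replicate number as a block, 4 of the 290 calls were lost: NR1H2 in si-CBX3 at 0 h (adjusted p = 0.0581), TM7SF2 (0.0553) and EBP (0.0535) in si-BRG1 at 6 h, and the IDI1 response difference of si-FOXA1 (0.0533). Deviations of same-numbered libraries from their group means correlated between -0.241 and 0.365 over 28 pairs of groups (median -0.0442, 4 of them above 0.1). Between the 2 times of an siRNA the values were 0.214 in si-BRG1, 0.135 in si-FOXA1, 0.0656 in si-CBX3 and -0.0443 in si-control. With 2 libraries per group these values cannot show whether same-numbered libraries shared a culture or a batch, and the labels give only the number.

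Each group holds 2 libraries, which limits the precision of every value. The least alike pair was si-BRG1 at 6 h, then si-control at 0 h and si-FOXA1 at 6 h. The si-control pair at 0 h enters each 0 h comparison with si-control and each difference between responses. For si-FOXA1 and si-CBX3 against si-control, siRNA and the thread number of the counting go together. The data without siRNA have no replicate. No samples were held for 6 h without R5020, so hormone and elapsed time cannot be told apart.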
